A study of Saccharomyces cerevisiae with 11 samples.

Results

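The enzymes that carry glucose to ethanol and glycerol in the budding yeast Saccharomyces cerevisiae were followed through 31 listed genes, chosen by name from glycolysis, ethanol fermentation, the pyruvate dehydrogenase bypass and glycerol synthesis. Each gene was read from the probe set that carries its symbol alone, and from the brightest one where it had several. Of the 31 genes, 30 had such a probe set, among 5656 genes with one on the array. TDH2 was covered only by probe sets shared with its sister genes, and PDC6 was too dim to test, which left 29 tested genes.

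Glycolysis splits glucose into pyruvate and recovers ATP on the way. In budding yeast growing on glucose most pyruvate is then decarboxylated and reduced to ethanol, which returns NADH to NAD+, while glycerol synthesis disposes of surplus NADH and makes the osmolyte of the cell. Many steps are served by a major isoenzyme and by sister genes that are used less on glucose or under special conditions, and the bypass turns acetaldehyde into acetate and acetyl-CoA in place of ethanol.

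RNA was measured on 11 Affymetrix YG-S98 arrays, and all cultures were grown in the rich glucose medium YPD and harvested at an optical density of 1.6 to 1.8. Wild-type BY4741, a common haploid laboratory strain, was untreated (3 arrays), exposed to 15 mM glucosamine for the last 2 h (3 arrays), or kept in 15 mM glucosamine overnight and after dilution, called continuous here (3 arrays). An fks1 mutant strain, affected in the major synthase of cell wall beta-glucan, was untreated (1 array) or given 15 mM glucosamine in the 2 h treatment (1 array). Glucosamine is an amino sugar that cells phosphorylate and feed into the precursor of chitin.

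The deposited values are scaled hybridization signals with no unit of their own, so a level is compared between arrays for 1 probe set and never between genes. The trimmed mean signal of the arrays lay between 500.4 and 500.5, and 76.7 to 81.3% of probe sets exceeded the background signal of 25.5, the 95th percentile of 19 control probe sets for genes that yeast does not have. FKS1 read 24.4 and 6.6 on the fks1 arrays and 6591 to 8257 on the wild-type arrays. The 5 mating type a markers read at least 414 on every array. The 4 mating type alpha markers read 30.9 to 188.7, which is above background on every array. The number of arrays limits the precision of every value below, and since the labels do not say that replicates came from separate cultures, p-values measure only the spread between these arrays.

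After 2 h of glucosamine no gene of the group passed the test in wild type. The test was limma on log2 signals with Benjamini-Hochberg adjustment over 8616 probe sets and a threshold of 0.05, by which 0 of 29 genes passed and 0.0348% of all probe sets did. The estimated differences were small, from -0.30 to 0.38 on the log2 scale. Of the 29 genes, 22 had a positive difference, against 46.1% of all probe sets, and their median was 0.10 against -0.02 over all probe sets. The smallest adjusted p of the group was 0.699 by limma, and 1 gene had an unadjusted p under 0.05, as had 6.06% of all probe sets.

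Untreated and 2 h arrays of the same number deviated together, so the 2 h comparison was also read within pairs. Of the 29 genes 9 were higher in all 3 pairs, where 14.8% of all probe sets were, and 4 were lower in all 3, where 21.1% were. The 9 were PGI1, TPI1, PGK1, GPM1, GPM2, CDC19, PDC1, ADH5 and GPD1, and the 4 were PFK27, GPM3, ALD4 and ACS2. Of the 9, PGI1, TPI1, PGK1, GPM1, CDC19 and PDC1 had mean signals over 8000, and such bright genes followed particular arrays, as described below. The part of array brightness in the paired counts was not tested. With the replicate number as a block 2 genes had an unadjusted p under 0.05 by limma, PGI1 and ALD4, against 12.8% of all probe sets, and the smallest adjusted p was 0.313.

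The gene with an unadjusted p under 0.05 in the unpaired fit was PGI1, phosphoglucose isomerase, which turns glucose 6-phosphate into fructose 6-phosphate. Its signal was 9056, 8735 and 9608 on the untreated arrays, 10610, 10557 and 11791 after 2 h, and 9580, 9376 and 10513 in continuous glucosamine. All 3 arrays at 2 h lay above all 3 untreated arrays, while the continuous arrays all lay below the 2 h arrays and overlapped the untreated ones. The difference at 2 h was 0.27 on the log2 scale (SE 0.09), which is 1.20-fold, and its limma adjusted p was 0.699. PGI1 was the only gene of the 29 with all 2 h arrays above the untreated ones, where 4.64% of all probe sets were, and 0 of 29 genes had them all below, where 6.35% of all probe sets did.

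The other upper glycolytic genes differed by 0.02 to 0.17 at 2 h. They are PFK1 and PFK2, the alpha and beta subunits of phosphofructokinase, FBA1, the aldolase, and TPI1, triose phosphate isomerase. All 8 tested major isoenzymes had positive differences at 2 h, with a median of 0.13 and a median SE of 0.16. Of the 10 tested minor isoenzymes 7 were positive, with a median of 0.07 and a median SE of 0.26. The 3 bypass genes all had negative differences, from -0.30 to -0.02, and the 4 glycerol genes had positive ones, from 0.07 to 0.27.

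**Figure D1:**
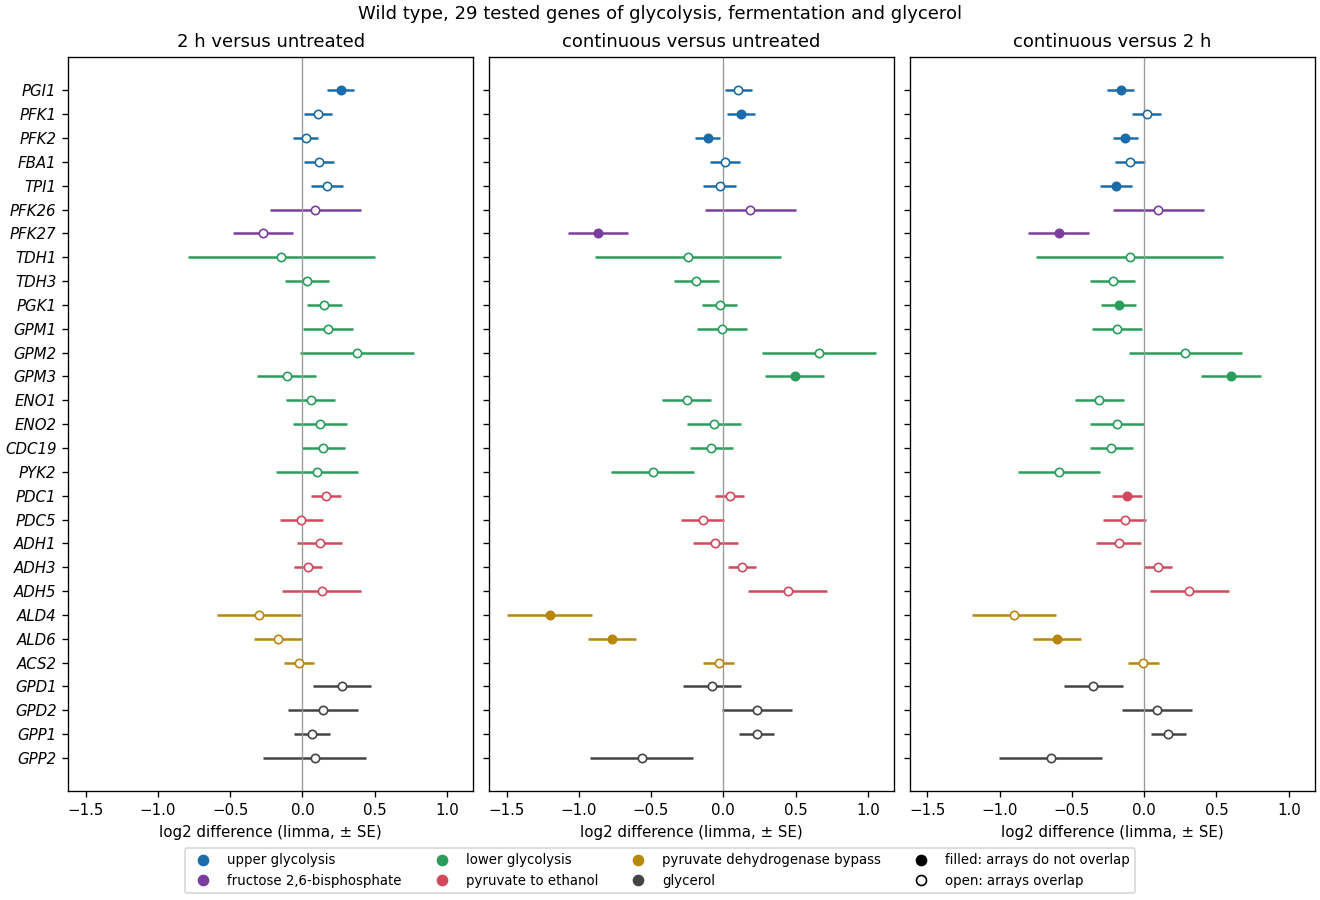
Log2 difference in signal (horizontal axis) of each of the 29 tested genes (vertical axis, grouped by role) in 3 comparisons of wild-type groups, with bars of 1 SE from limma and 3 arrays per group. At 2 h all points lie between -0.30 and 0.38, and in continuous glucosamine ALD4 and ALD6 lie at -1.20 and -0.77.

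The bright genes of the group followed 2 particular arrays. Of the 11 genes with a mean signal over 8000, 9 had their lowest wild-type value on untreated array 2 and 9 had their highest on 2 h array 3. Of all probe sets 13.15% had their lowest value on the first of these arrays and 13.045% their highest on the second. Those arrays also had the lowest and the highest 99th percentile of all signals among the 9 wild-type arrays, 8109 and 10720. The bright genes lie near or above that percentile themselves, so it is not independent of them. Quantile normalization, which removes that difference, gave a median of 0.05 for the group at 2 h, against -0.002 over all probe sets. With arrays scaled to a common median it was 0.16, against 0.03 over all probe sets. Leaving out 2 h array 3 gave 0.04, leaving out untreated array 2 gave 0.06, and leaving out 2 h array 2 gave 0.12. The part of array brightness in the 2 h median was not tested further.

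**Figure D2:**
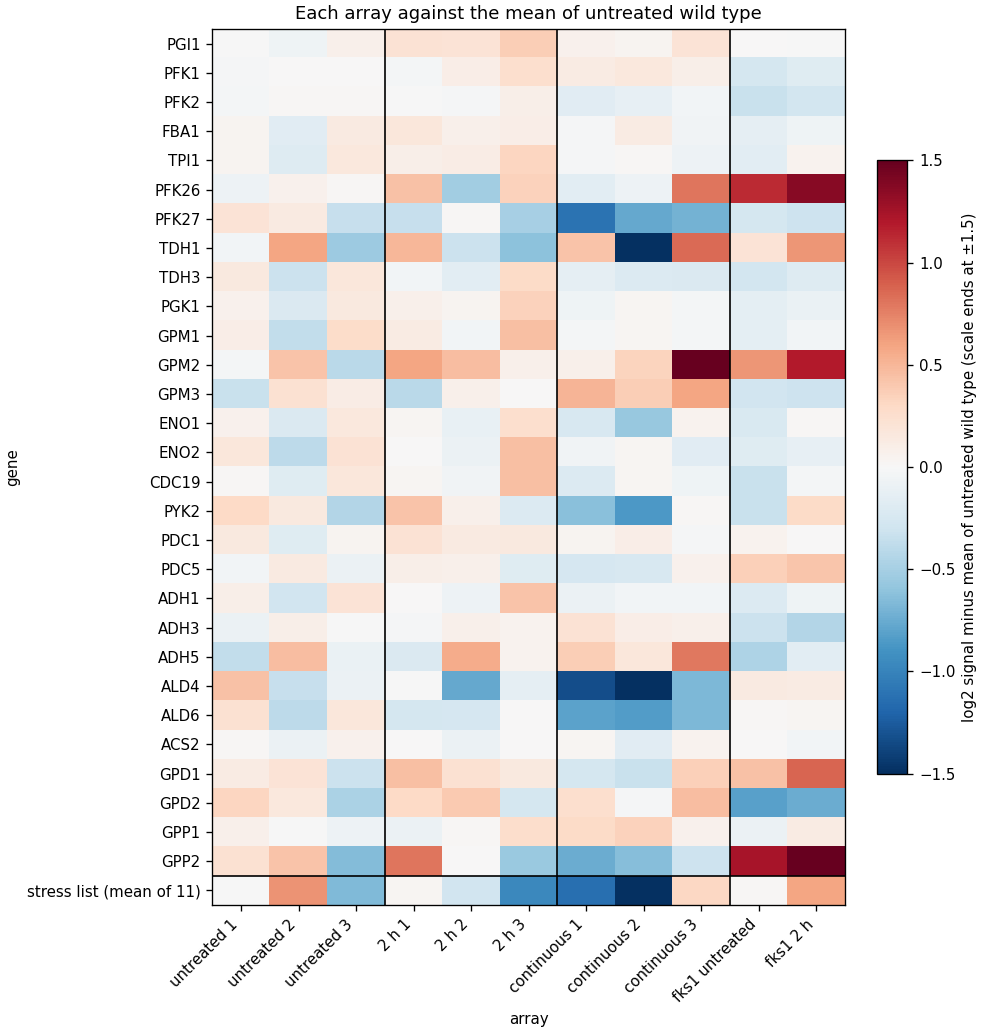
Log2 signal of each gene minus its mean over the 3 untreated wild-type arrays, for all 11 arrays, with genes in rows grouped by role and arrays in columns. Untreated array 2 is low and 2 h array 3 high across the bright glycolytic genes, and ALD4, ALD6 and PFK27 are low on all 3 continuous arrays.

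In continuous glucosamine the largest differences of the group were in the bypass and in a maker of fructose 2,6-bisphosphate, and none passed the test. ALD4 and ALD6, the mitochondrial and cytosolic aldehyde dehydrogenases that oxidise acetaldehyde to acetate, and PFK27, a kinase that makes the allosteric activator of phosphofructokinase, had lower signals on all 3 continuous arrays than on any untreated array. By limma 0 of 29 genes passed the adjusted threshold, as 1.44% of all probe sets did, and the smallest adjusted p of the group was 0.0560. An unadjusted p under 0.05 was found for 4 of the 29 genes, which is about the same share as the 13.8% of all probe sets. Of the 29 genes 11 had positive and 18 negative differences, where 52.4% of all probe sets were positive, with a median of -0.03 against 0.02 over all probe sets. Under quantile normalization the median of the group was 0.06, against -0.001 over all probe sets. With arrays scaled to a common median it was -0.09, against -0.04, so its sign depended on the scaling.

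ALD6 read 4446, 2892 and 4277 on the untreated arrays, 3159, 3195 and 3827 at 2 h, and 2181, 2121 and 2388 in continuous glucosamine. The continuous arrays lay below every other wild-type array, and the 2 h arrays lay inside the untreated range. Against untreated the difference was -0.77 (SE 0.17), or 1.71-fold lower, with a limma adjusted p of 0.0560. Against 2 h it was -0.60 (SE 0.17), with a limma adjusted p of 0.212. A second ALD6 probe set read 0.9 to 18.0 on all arrays, under the background signal, and averaging both gave -0.41.

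ALD4 read 1971, 1137 and 1359 on the untreated arrays, 1449, 853 and 1322 at 2 h, and 576, 479 and 909 in continuous glucosamine. All continuous arrays lay below all untreated arrays, but continuous array 3 lay above the lowest 2 h array. The difference from untreated was -1.20 (SE 0.29), or 2.30-fold lower, with a limma adjusted p of 0.0764, and that from 2 h was -0.90 (SE 0.29), with a limma adjusted p of 0.262. ACS2, the acetyl-CoA synthetase that uses the acetate in the cytosol on glucose, differed by -0.03 (SE 0.11) from untreated.

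PFK27 read 452, 430 and 309 on the untreated arrays, 309, 398 and 277 at 2 h, and 181, 229 and 239 in continuous glucosamine. The continuous arrays were below all 6 others. The difference was -0.87 (SE 0.21) from untreated, or 1.82-fold lower, with a limma adjusted p of 0.0750, and -0.59 (SE 0.21) from 2 h, with a limma adjusted p of 0.276. PFK26, the other kinase for the same activator, read 123, 135 and 132 on untreated and 116, 123 and 225 on continuous arrays, which overlapped.

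**Figure D3:**
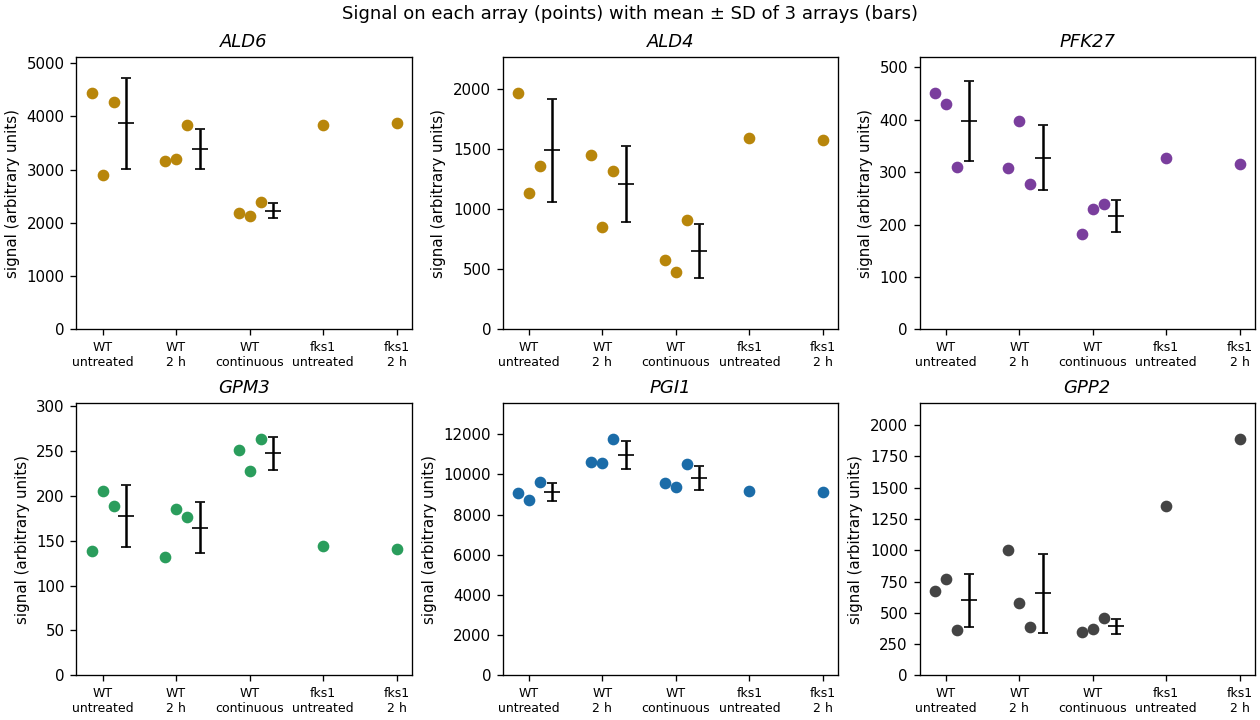
Signal (vertical axis, linear and from 0) of ALD6, ALD4, PFK27, GPM3, PGI1 and GPP2 on each of the 11 arrays, as points by group, with the mean ± SD of the 3 arrays of each wild-type group. The continuous arrays of ALD6, ALD4 and PFK27 all lie under the untreated arrays, and the fks1 arrays of GPP2 lie above all wild-type arrays.

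The 5 upper glycolytic genes had differences from -0.11 to 0.12 in continuous glucosamine. PFK1 read 5268, 5353 and 5375 on the untreated arrays, 5238, 5700 and 6346 at 2 h, and 5801, 5961 and 5661 in continuous glucosamine. Its continuous arrays were all above its untreated arrays, by 0.12 (SE 0.10, limma adjusted p = 0.660), and the 2 h arrays spanned both. PFK2 read 7285, 7519 and 7506 on untreated and 6628, 6844 and 7240 on continuous arrays, which were all lower, by a log2 difference of -0.11 (SE 0.09, limma adjusted p = 0.663). In all, 2 genes of the 29 were higher and 4 lower without overlap in this comparison, against 10.6% and 9.48% of all probe sets. Taken in both directions together, the share in the group was close to that of all probe sets.

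In lower glycolysis 2 of 10 tested genes had positive differences and 8 negative ones, and the positive pair were GPM2 and GPM3, relatives of the phosphoglycerate mutase GPM1. GPM3 read 139, 205 and 189 on the untreated arrays, 132, 185 and 176 at 2 h, and 251, 227 and 264 in continuous glucosamine. Every continuous array was above every other wild-type array. The difference from untreated was 0.49 (SE 0.20, limma adjusted p = 0.309), or 0.32 without untreated array 1, and that from 2 h was 0.60 (SE 0.20, limma adjusted p = 0.272).

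GPM2 read 40.9, 56.0 and 31.4 on the untreated arrays, 62.7, 57.2 and 44.0 at 2 h, and 43.7, 52.5 and 124.2 in continuous glucosamine. Only continuous array 3 stood above the rest, and the groups overlapped, with a difference of 0.66 (SE 0.39, limma adjusted p = 0.525). Without that array the difference was 0.20. TDH1, the glyceraldehyde 3-phosphate dehydrogenase used least on glucose, read 4067, 748 and 5422 in continuous glucosamine, a 7.24-fold range within 1 group. The remaining genes of lower glycolysis differed by -0.49 to -0.01, and they are TDH3, PGK1 (phosphoglycerate kinase), GPM1, the enolases ENO1 and ENO2, and the pyruvate kinases CDC19 and PYK2.

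The probe sets shared by sister genes gave the only view of TDH2. The one shared by TDH2 and TDH3 differed by 0.39 (SE 0.15) at 2 h and by 0.22 (SE 0.15) in continuous glucosamine, with limma adjusted p of 0.744 and 0.594. The one shared by ENO1 and ENO2 differed by 0.16 (SE 0.10) and -0.04 (SE 0.10). Signals of sister genes on such probe sets cannot be told apart.

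From pyruvate to ethanol the continuous differences ran from -0.14 to 0.45. ADH5, a minor alcohol dehydrogenase, read 227, 406 and 275 on the untreated arrays, 252, 433 and 304 at 2 h, and 380, 331 and 509 in continuous glucosamine. Untreated array 2 lay inside the continuous range, and the difference was 0.45 (SE 0.27, limma adjusted p = 0.544). It was 0.26 without untreated array 1, 0.68 without untreated array 2 and 0.27 without continuous array 3. PDC1, the main pyruvate decarboxylase, and ADH1, the main alcohol dehydrogenase, differed by 0.04 (SE 0.10) and -0.06 (SE 0.16). PDC6, a pyruvate decarboxylase barely used on glucose, read 2.0 to 9.0 on the wild-type arrays and 13.0 and 22.6 on the fks1 arrays, under background on all 11.

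In the glycerol branch the glycerol 3-phosphate dehydrogenases GPD1 and GPD2 and the phosphatase GPP1 differed by -0.08 to 0.23 in continuous glucosamine. GPP2, the phosphatase induced by osmotic stress, read 672, 769 and 364 on the untreated arrays, 1000, 575 and 390 at 2 h, and 343, 368 and 462 in continuous glucosamine. The groups overlapped, since untreated array 3 was as low as the continuous arrays, and the difference was -0.56 (SE 0.36, limma adjusted p = 0.558). It was -0.35 without untreated array 2 and -0.89 without untreated array 3. The mean log2 signal of 11 stress and post-diauxic genes, relative to untreated, was -0.01, 0.67 and -0.66 on the untreated arrays and -1.13, -1.67 and 0.31 on the continuous arrays. Its part in the GPP2 difference was not tested.

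Set against 2 h, continuous glucosamine gave 8 positive and 21 negative differences, where 55.7% of all probe sets were positive, with a median of -0.16 against 0.05 over all probe sets. By limma 0 of 29 genes passed, as 0.058% of all probe sets did, and 4 had an unadjusted p under 0.05, against 14.0%. Without overlap 1 gene was higher and 7 were lower, against 11.5% and 7.14% of all probe sets. The lower ones were PGI1, PFK2, TPI1, PFK27, PGK1, PDC1 and ALD6, and apart from PFK27 and ALD6 their differences were -0.20 to -0.12. The median was -0.03 under quantile normalization and -0.28 when arrays were scaled to a common median, while the median of all probe sets moved to 0.01 and -0.06. Both glucosamine comparisons with untreated share the untreated arrays, and this one shares the treated arrays with both.

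The ratio of 2 sister genes on the same array was compared between groups for 12 of 14 listed pairs, the others needing TDH2 or PDC6. At 2 h no pair had arrays apart from the untreated ones, where 10.7% of all pairs of probe sets did, and the smallest p of the exact two-sided permutation test was 0.4. In continuous glucosamine 2 of 12 pairs were apart, both lower, a smaller share than the 20.1% of all pairs of probe sets. With 3 arrays against 3 the exact test cannot give a p under 0.1, and adjusted over 12 pairs the smallest was 0.514.

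PFK27 over PFK26 was lower in continuous glucosamine by -1.05 on the log2 scale (SE 0.31, exact permutation p = 0.1). PFK2 over PFK1 was -0.29, -0.28 and -0.13 on the continuous arrays and -0.01, 0.01 and 0.00 on the untreated ones, relative to the untreated mean. The 2 h arrays overlapped both groups, and the continuous difference was -0.23 (SE 0.05, exact permutation p = 0.1). GPP2 over GPP1 differed by -0.80 (SE 0.37) and GPD2 over GPD1 by 0.31 (SE 0.16), each with an exact permutation p of 0.2.

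The major and minor isoenzymes were set side by side as a description, with no test. Untreated mean signals ran from 3459 to 13936 over the major isoenzymes and from 42.8 to 11555 over the minor ones. Most minor ones were dimmer than every major one, so isoenzyme class and signal level cannot be told apart here. At 2 h the median size of the difference from untreated was 0.13 over 8 major and 0.10 over 10 minor isoenzymes. In continuous glucosamine it was 0.07 and 0.35, and the median SE was 0.16 and 0.26. The SD of log2 signals among untreated arrays had a median of 0.27 for the major and 0.40 for the minor isoenzymes, among 2 h arrays of 0.24 and 0.29, and among continuous arrays of 0.08 and 0.28. The ranges of these SDs overlapped in every group, such as 0.04 to 0.29 and 0.05 to 0.68 at 2 h. Of the major isoenzymes 2 of 8 and of the minor ones 5 of 10 had positive differences in continuous glucosamine.

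**Figure D4:**
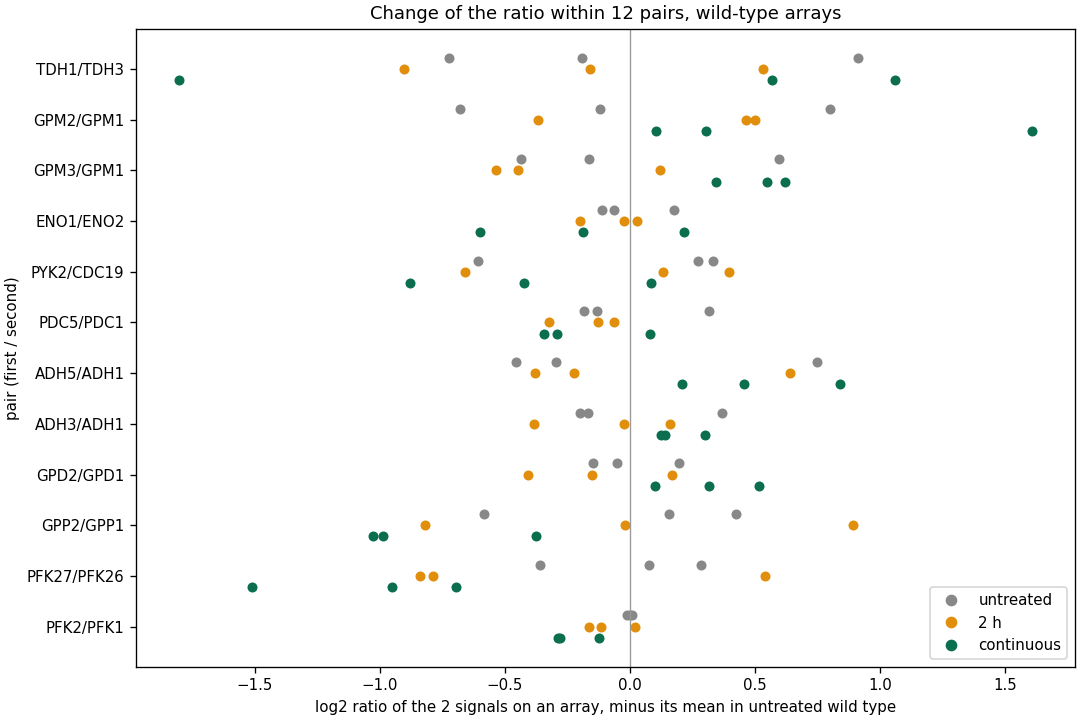
Log2 ratio of the 2 sister genes of a pair on each of the 9 wild-type arrays, minus its mean over the untreated arrays (horizontal axis), for 12 pairs (vertical axis), with 1 point per array coloured by group. The continuous points of PFK27/PFK26 and PFK2/PFK1 all lie left of the untreated points.

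The fks1 arrays, with 1 per treatment, allow no test, and a gene was counted where its signal was at least 2-fold from each of the 3 wild-type arrays of the same treatment. Of the 29 genes 1 was counted untreated, PFK26, and 0 at 2 h, against 3.08% and 3.11% of all probe sets. PFK26 read 282 on the untreated fks1 array, above the wild-type range of 123 to 135 and 2.17-fold over its geometric mean, to which folds of the fks1 arrays refer. At 2 h it read 333 against 91 to 176, which is 2.41-fold over the mean and 1.89-fold over the nearest array. Its excess untreated was 1.12 on the log2 scale, and 0.91 with arrays scaled to a common median, when it was no longer counted.

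Of the 4 glycerol genes GPP2 and GPD1 read above and GPD2 below the wild-type range on both fks1 arrays. Of all probe sets 38.4% read above and 19.5% below that range untreated, and 33.5% and 21.1% did at 2 h. GPP2 read 1355 untreated and 1893 at 2 h, against 364 to 769 and 390 to 1000, or 2.36-fold and 3.12-fold over the wild-type mean. Over the nearest wild-type array it was 1.76-fold and 1.89-fold, so it was not counted under the 2-fold rule. GPD1 read 4641 and 6236, above ranges of 2725 to 3935 and 3774 to 4677. GPD2 read 382 and 403, below ranges of 486 to 840 and 561 to 883, or 1.76-fold and 1.85-fold lower than the mean. GPP1 read 4568 untreated, just under its range of 4607 to 5088, and 5268 at 2 h, inside its range of 4547 to 5816.

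The ratio of GPD2 to GPD1 was lower in fks1 by a log2 difference of -1.26 untreated and -1.48 at 2 h, and that of GPP2 to GPP1 was higher by 1.32 and 1.58. The stress genes averaged 0.02 and 0.59 above untreated wild type on the fks1 arrays. On that same scale the wild-type arrays at 2 h averaged 0.03, -0.29 and -0.97. HSP12, a stress gene, read 4147 and 7307 on the fks1 arrays. On the wild-type arrays HSP12 read 890 to 4015 untreated and 700 to 2446 at 2 h. The part of these genes in the glycerol values was not tested.

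In upper glycolysis PFK1 and PFK2 were the genes below the wild-type range on both fks1 arrays. PFK1 read 4457 and 4720 and PFK2 read 5895 and 6134, with log2 differences of -0.33 to -0.26. Untreated, PGI1, FBA1 and TPI1 lay inside the wild-type range, so 2 of 5 were below it, where 19.5% of all probe sets were. At 2 h all 5 were below it, where 21.1% of all probe sets were. Under quantile normalization the counts were 2 and 3, and with arrays scaled to a common median 5 and 5. ADH3, the mitochondrial alcohol dehydrogenase, was 1.26-fold and 1.40-fold lower. PDC5, a minor pyruvate decarboxylase, was 1.29-fold and 1.34-fold higher, and GPM2 was 1.58-fold and 1.75-fold higher. Each of these genes lay outside the wild-type range at both treatments.

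Over all 29 genes 5 were above and 8 below the wild-type range untreated, and 8 above and 11 below at 2 h. Of all probe sets 38.4% were above and 19.5% below the range untreated, and 33.5% and 21.1% at 2 h. The median of the group was -0.15 untreated and -0.16 at 2 h, against 0.12 and 0.08 over all probe sets. Under quantile normalization it was 0.03 and 0.01, and with arrays scaled to a common median -0.36 and -0.29, so its sign depended on the scaling. In fks1 itself 22 of 29 genes were higher at 2 h than untreated, where 42.8% of all probe sets were, and the median was 0.08 against -0.05 over all probe sets. None differed by 2-fold, where 3.91% of all probe sets differed by 2-fold.

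**Figure D5:**
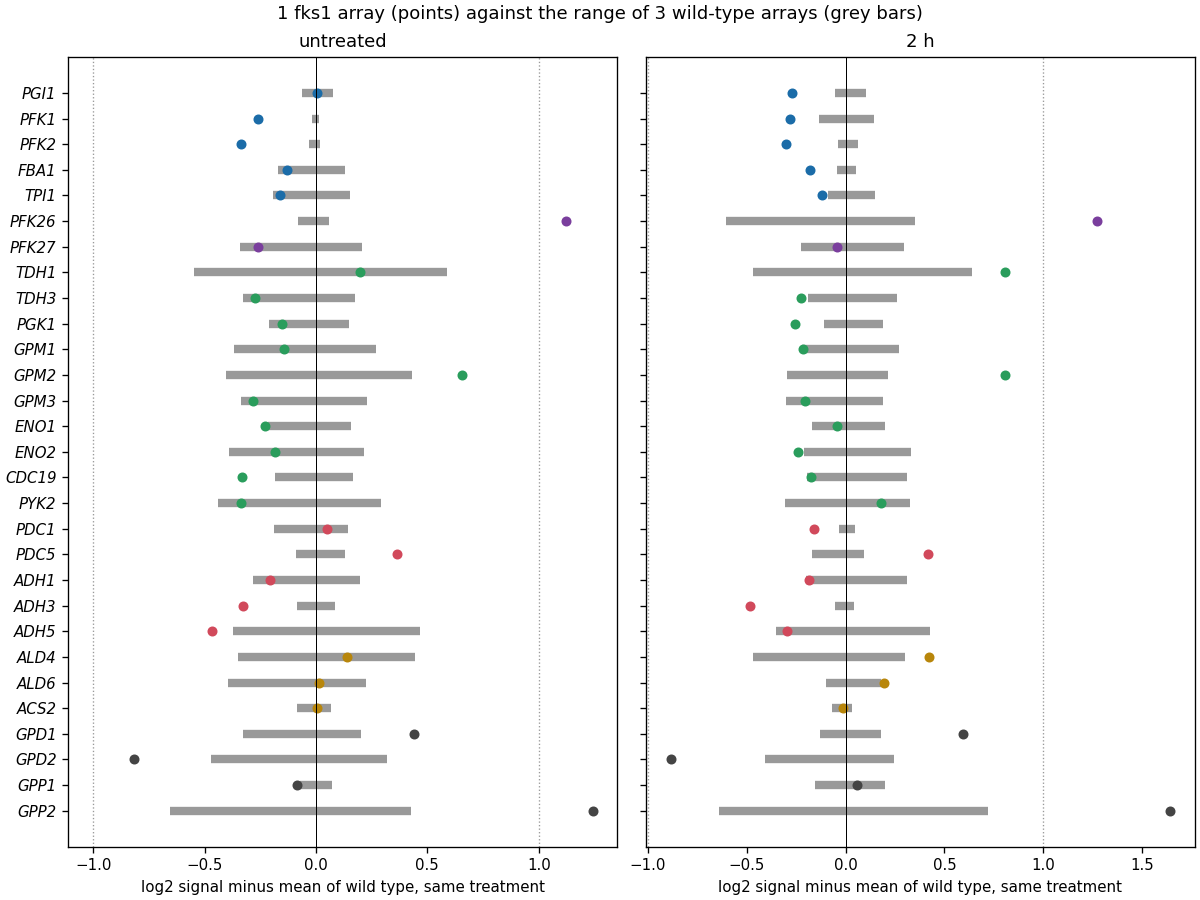
Log2 signal of each gene on 1 fks1 array (points) beside the range of the 3 wild-type arrays of the same treatment (grey bars), relative to the wild-type mean, untreated (left) and at 2 h (right). PFK26, GPM2, PDC5, GPD1 and GPP2 lie above the range and PFK1, PFK2, ADH3 and GPD2 below it in both panels.

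Around these enzymes, the neighbouring pathways were counted by list. Of 4 hexose kinases and their relatives, 4 genes of gluconeogenesis and pyruvate carboxylation, 9 other alcohol and aldehyde dehydrogenases with ACS1, 7 genes of glycerol uptake and breakdown and 5 regulators, 0 passed the limma threshold in any wild-type comparison. Of 11 pentose phosphate genes 1 fell in continuous glucosamine, where 1.44% of all probe sets passed, ZWF1, the glucose 6-phosphate dehydrogenase that opens the pathway. It read 1323, 1401 and 1265 untreated, 1057, 1253 and 987 at 2 h, and 583, 549 and 893 in continuous glucosamine. The continuous arrays lay below all others, and the difference was -1.01 (SE 0.19), or 2.02-fold lower, with a limma adjusted p of 0.0360. Leaving out 1 array raised that p above the threshold in 5 cases, which were each untreated array (0.109, 0.129 and 0.0933) and continuous arrays 1 and 2 (0.134 and 0.106). Over all 21 alternatives it ran from 0.0287 to 0.183, and the ZWF1 call held in 11. That call was also lost without the filter, without the variance trend, and with the replicate block on 6 or 9 arrays. A fit of only the 6 arrays compared, without the block, lost it too (limma adjusted p = 0.0507).

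Among 5 hypoxic genes 2 passed in continuous glucosamine and both rose, ANB1, a translation factor gene used when oxygen is low, by 1.39 (SE 0.27, limma adjusted p = 0.0421) and AAC3, an ADP/ATP carrier gene, by 1.24 (SE 0.21, limma adjusted p = 0.0272). The others did not pass and had both signs: HEM13, of heme synthesis, differed by 0.90 (SE 0.30), COX5B, a cytochrome oxidase subunit, by -0.99 (SE 0.26) and CYC7, a cytochrome c, by -0.83 (SE 0.59). AAC3 also rose from 2 h to continuous glucosamine, by 1.57 (SE 0.21, limma adjusted p = 0.0331). Among the 11 stress genes 1 fell, HSP12, with a log2 difference of -3.47 (SE 0.66, limma adjusted p = 0.0408). Each of these calls was lost when any untreated array, or continuous array 1 or 2, was left out, and those of HSP12 and ANB1 also without 2 h array 2, except AAC3 from 2 h, which was lost without any untreated or 2 h array or continuous array 1. The calls from untreated held in 10 of 21 alternatives for HSP12, 9 for ANB1 and 13 for AAC3. All were lost without the filter, without the variance trend and with the replicate block on 6 arrays. Fits of only the 6 arrays compared, without the block, lost HSP12, ANB1 and AAC3 from 2 h (limma adjusted p = 0.0501, 0.067 and 0.152). The call of AAC3 from untreated held in that fit (limma adjusted p = 0.0485). With the block on 9 arrays HSP12 and ANB1 were lost and both AAC3 calls held. ANB1 was also lost under median scaling (limma adjusted p = 0.0545). Over 21 alternatives the adjusted p from untreated ran from 0.0323 to 0.180 for HSP12, 0.0366 to 0.174 for ANB1 and 0.0231 to 0.174 for AAC3. For AAC3 from 2 h it ran from 0.0268 to 0.542, with 0.0636 under median scaling and 0.0873 under quantile normalization, and the call held in 8 of the 21.

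On the fks1 arrays FBP1, the gluconeogenic fructose bisphosphatase, was 3.86-fold and 5.02-fold over the wild-type mean untreated and at 2 h, although 1 wild-type array at 2 h, at 25.1, was under background. NQM1, a transaldolase relative, was 5.59-fold and 7.68-fold over it. At 2 h ALD3, an aldehyde dehydrogenase, and DDR2, a stress gene, were also counted, at 2.86-fold and 5.93-fold, as was HSP12 at 5.29-fold. By list the counts at 2 h were 2 of 11 stress, 2 of 11 pentose phosphate and 1 of 4 gluconeogenesis genes. Of the other dehydrogenases 1 of 9 was counted, and of glycerol uptake and breakdown 1 of 7, where 3.11% of all probe sets were. Untreated, 1 of 4 gluconeogenesis and 1 of 11 pentose phosphate genes were counted, where 3.08% of all probe sets were. No hexose kinase, regulator or hypoxic gene was counted at either treatment. GND2, a minor 6-phosphogluconate dehydrogenase, was counted at 2 h with 170.3 against 63.9, 57.2 and 9.4, of which the last was under background. STE3, a receptor gene of mating type alpha cells, was counted at 2 h with 93.8 against 38.9 to 43.7. It was the only 1 of 4 alpha markers counted. At 2 h MF(ALPHA)1 was at 0.66-fold, MF(ALPHA)2 at 1.03-fold and SAG1 at 1.53-fold of the wild-type mean. STL1, a glycerol importer, was counted at 2 h with 35.8, and its wild-type arrays were under background.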

How the data were processed

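RNA of 11 samples was hybridized to 1 Affymetrix YG-S98 array each. Per the labels, the chips were analysed and normalized with GeneChip Analysis Suite, and the deposited values are that program's signal per probe set, in 1 table. The program's version is not given in the sources used here. Arrays were not rescaled, since their trimmed means differed by a ratio of 1.0002. Gene names came from the platform's table, and all 6504 probe sets with 1 symbol matched the RefSeq table; 328 had several symbols and 2443 had none. No genome coordinates or sequences are used here.

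Signals were floored at 7.7, the 10th percentile of all signals, and put on the log2 scale. Probe sets above the floor on at least 3 of 9 wild-type arrays were tested (8616 of 9275 that are not controls). The 9 wild-type arrays were fitted together with limma 3.58.1 in R 4.3.3, with a variance trend and Benjamini-Hochberg adjustment. The fit was tested on simulated data. Ratios of sister genes were compared with an exact permutation test over arrays in scipy, and fks1 with a 2-fold rule.

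The members and lists were chosen with earlier results of these data known. A member has its value given on each array where it passed, counted under the 2-fold rule, had an unadjusted p under 0.05 with arrays apart, or had the largest continuous difference of its role; others are described by range, and a few (PFK2, TDH1, PDC5, ADH3, GPD1, GPD2, GPP1) were added after their values were seen. Genes of other lists are named where they passed or counted, and HEM13, COX5B and CYC7 were added after their values were seen.

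Scaling alternatives for the upper glycolysis counts in fks1 were chosen after seeing the data. Same-numbered untreated and 2 h arrays deviated together from their group means (correlations 0.36, 0.57 and 0.52), and same-numbered continuous arrays did not (-0.24 to -0.01 with untreated and -0.20 to -0.04 with 2 h). The alternatives were another floor, an offset of 16, no filter or a stricter one, median scaling, quantile normalization, no variance trend, other sets of arrays, a replicate block, the mean of a gene's probe sets, and leaving out each array.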

Additional observations from a re-analysis of the deposited data

Results flagged for a closer look

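PGI1 read higher at 2 h than untreated in wild type and about the same at both treatments in fks1. In wild type every 2 h array was above every untreated array, by 0.27 on the log2 scale, while the fks1 arrays read 9167 untreated and 9105 at 2 h, a log2 difference of -0.0098. With 1 fks1 array per treatment the difference between the strains was not tested, and the fks1 value is close to no difference.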

How the results depend on the processing

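No member passed the limma threshold at 2 h against untreated, or in continuous glucosamine against 2 h, in any of 21 alternatives. In continuous glucosamine against untreated the count was 0 in 19 alternatives and 0 to 1 when 1 array was left out: ALD6 passed without 2 h array 3 (adjusted p = 0.0494) and ALD4 without continuous array 3 (adjusted p = 0.0430). Over the alternatives the limma adjusted p of ALD6 ran from 0.0494 to 0.363, that of ALD4 from 0.0430 to 0.247, and that of PFK27 from 0.0605 to 0.254, and none of the 3 differences turned its sign. The fks1 count of 1 untreated became 0 with the offset, median scaling or quantile normalization, and ran from 1 to 2 when 1 array was left out. The fks1 count at 2 h ran from 0 to 2 when 1 array was left out. Pairs of sister genes apart ran from 0 to 3 at 2 h and from 2 to 6 in continuous glucosamine when 1 array was left out. The cause of these moves was not tested, beyond the fewer arrays to be apart from.

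With the replicate number as a block (replicate block, 6 arrays) the paired 2 h comparison called 17 probe sets, against 0 in the same 6 arrays without the block, while with 9 arrays the block called 0 and the fit without it 3. Each of these fits called 0 members, and with 6 blocked arrays the smallest adjusted p of a member was 0.313, for PGI1. The block changed no call of a member. In continuous glucosamine, where the numbers did not pair the arrays, it called 0 probe sets with 6 arrays, against 120 without it, and 50 with 9 arrays, against 124. The 124 probe sets ran from 2 without untreated array 2 to 186 without 2 h array 3, and were 16 without the filter, 11 without the variance trend and 56 with median scaling.

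With 3 arrays per group only differences that are large against the spread can pass, and the 2-fold counts for fks1 rest on 1 array each. Probe sets under background, such as PDC6, carry no usable level.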
